A study of Mus musculus with 12 samples.

Results

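The mouse beta-globin locus was taken as the stretch of chromosome 7 from 110.95 to 111.06 Mb on build mm9. Its members are the DNase-seq peaks that overlap this window, taken by position with no use of their strength. The window itself was chosen with earlier results of these data known. The window was read in 3 stretches, called the gene part (the first 50 kb, where the Hbb genes lie), the control region part (the next stretch, up to 111.03 Mb) and the flank beyond it. In the 12 libraries 56 peaks overlapped the window, and another 22 came from the 4 lists that the authors made by pooling replicates. Merging the 12 libraries gave 15 sites in the window, of 265371 merged regions in the genome. The gene part held 8 sites, the control region part 6 and the flank 1. No annotation of build mm9 was used, so a site is named by its median summit in Mb and is not assigned to a single gene.

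DNase-seq finds open chromatin by where the enzyme DNase I cuts most readily. The libraries came from a pair of strain 129 erythroid lines, 3 libraries in each of 4 groups. G1E is a line derived from embryonic stem cells with a disrupted GATA1 gene, labelled Ter119- with CD71- or CD71+. G1E-ER4 is its subline with an inducible GATA1, labelled Ter119+CD71+, and all 6 of its libraries were treated with estradiol (100 nM, 22 h). The asynchronous libraries are growing cultures, and the mitotic ones are cells that had 200 ng/ml nocodazole for 7 h and were sorted for phosphorylated histone H3. Both lines share the disrupted endogenous GATA1 gene, and estradiol goes with the line, so GATA1 restoration, estradiol and the subline cannot be told apart. Nothing in the labels says that replicates are separate cultures, so p-values cover the spread between these libraries, which may be technical.

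The beta-globin genes encode the beta-like chains of haemoglobin. Hbb-y and Hbb-bh1 are used in the embryo, and Hbb-b1 and Hbb-b2 (Hbb-bt and Hbb-bs in the C57BL/6J reference) in the adult. They share a locus control region, a row of DNase I hypersensitive enhancers upstream of the embryonic end that contacts the promoter in use and is bound by GATA1, KLF1 and NF-E2. GATA1 is required for high adult globin transcription in maturing red cells, and transcription largely stops as chromosomes condense in mitosis. In the RefSeq gene table of assembly GRCm38.p6 the order along the chromosome is Hbb-bt, Hbb-bs, Hbb-bh3, Hbb-bh2, Hbb-bh1 and Hbb-y, with olfactory receptor genes on either side, which are not used in red cells.

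Of 8 Hbb genes looked up in RefSeq's promoter table, 4 matched (Hbb-bs, Hbb-bt, Hbb-bh2 and Hbb-y), and Hbb-b1, Hbb-b2, Hbb-bh0 and Hbb-bh1 did not. The promoters of both adult genes and of embryonic Hbb-y are shown because they are the switches that the control region acts on. Each is the 250 bases before the gene's start, 5′ to 3′ along the gene, on the minus strand of GRCm38.p6, whose coordinates are not those of mm9. Capitals mark every match, on either strand, to AGATAA or TGATAA (bound by GATA factors), CCACACCC or its core CACCC (the CACCC box), CCAAT, and TATAAA.
Hbb-bs, chr7:103827929-103828178: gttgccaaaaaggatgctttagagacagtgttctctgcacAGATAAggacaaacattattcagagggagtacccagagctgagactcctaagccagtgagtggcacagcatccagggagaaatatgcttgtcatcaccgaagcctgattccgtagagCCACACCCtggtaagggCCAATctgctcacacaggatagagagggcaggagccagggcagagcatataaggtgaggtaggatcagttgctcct
Hbb-bt, chr7:103813924-103814173: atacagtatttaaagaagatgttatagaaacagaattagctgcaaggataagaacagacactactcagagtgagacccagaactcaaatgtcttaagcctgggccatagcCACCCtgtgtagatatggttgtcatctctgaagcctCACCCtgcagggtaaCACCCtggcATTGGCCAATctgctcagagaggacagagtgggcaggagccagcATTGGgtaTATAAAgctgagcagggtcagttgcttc
Hbb-y, chr7:103853208-103853457: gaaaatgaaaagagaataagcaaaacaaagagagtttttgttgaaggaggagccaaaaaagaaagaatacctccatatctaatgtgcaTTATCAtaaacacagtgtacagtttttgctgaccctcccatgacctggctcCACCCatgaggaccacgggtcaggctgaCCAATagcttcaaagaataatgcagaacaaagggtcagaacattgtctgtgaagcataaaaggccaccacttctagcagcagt

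The 3 printed promoters held a CACCC upstream of a CCAAT, and the fourth that matched, that of Hbb-bh2, held neither. CACCC was added to the search after the sequences were seen. In Hbb-bs the CACCC began 90 bases before the start, inside a CCACACCC that began at 93, and the CCAAT began at 76. In Hbb-bt the nearest CACCC began at 89 and a CCAAT at 75, directly after a CCAAT on the other strand whose first base was at 80. In Hbb-y the CACCC lies farther out and the CCAAT began at 83. AGATAA was in Hbb-bs, with its first base 210 before the start, and in Hbb-bh2 at 167, and TGATAA was in Hbb-y, on the other strand at 162. Over the 32851 promoters of the table, windows of this length held CACCC in 52% of cases, CCAAT in 33.8%, TATAAA in 12.4%, AGATAA in 9.99%, TGATAA in 7.94% and CCACACCC in 3.2%. The matches are a description of letters and show no binding.

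Each list held 100000 peaks, which were put in order of the signal that the authors deposited. A site is therefore described by its rank in a list, where 1 is the strongest peak of the genome. A site without a peak is called not listed and was counted as placed below every listed peak. It may have been weaker than rank 100000, not called or filtered out, and the lists do not show whether it was closed. Read depth is unknown. The 100000 peaks covered 45.1 to 113 Mb in asynchronous G1E, 84.9 to 130 Mb in mitotic G1E, 84.3 to 181 Mb in asynchronous and 64.9 to 146 Mb in mitotic G1E-ER4. Signal at rank 10000 was 3.19 to 6.30 times the lowest listed signal in the 6 asynchronous lists and 1.86 to 2.67 times in the 6 mitotic lists, so signal falls off less steeply down the mitotic lists. The part of this flatter curve in the results was not tested. In bulk libraries, fewer cells with an open site and less opening per cell cannot be told apart.

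All 15 sites had a peak in at least 1 asynchronous G1E list, and 9 had a peak in all 3. Asynchronous G1E was the sole group with a peak at 9 sites, 7 in the gene part and 2 in the control region part, against 40.6% of the genome's regions listed in that group. The number listed in at least 1 library was 3 in mitotic G1E, 5 in asynchronous G1E-ER4 and 2 in mitotic G1E-ER4. No site was in all 12 lists. Summits of different libraries fell within 100 bp of each other at each of the 12 sites with more than 1 peak, so the libraries that listed a site placed it at the same position. The pooled lists gave 14 peaks in asynchronous G1E, 4 in asynchronous G1E-ER4 and 2 in each mitotic group, all of them within the 15 sites.

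**Figure D1:**
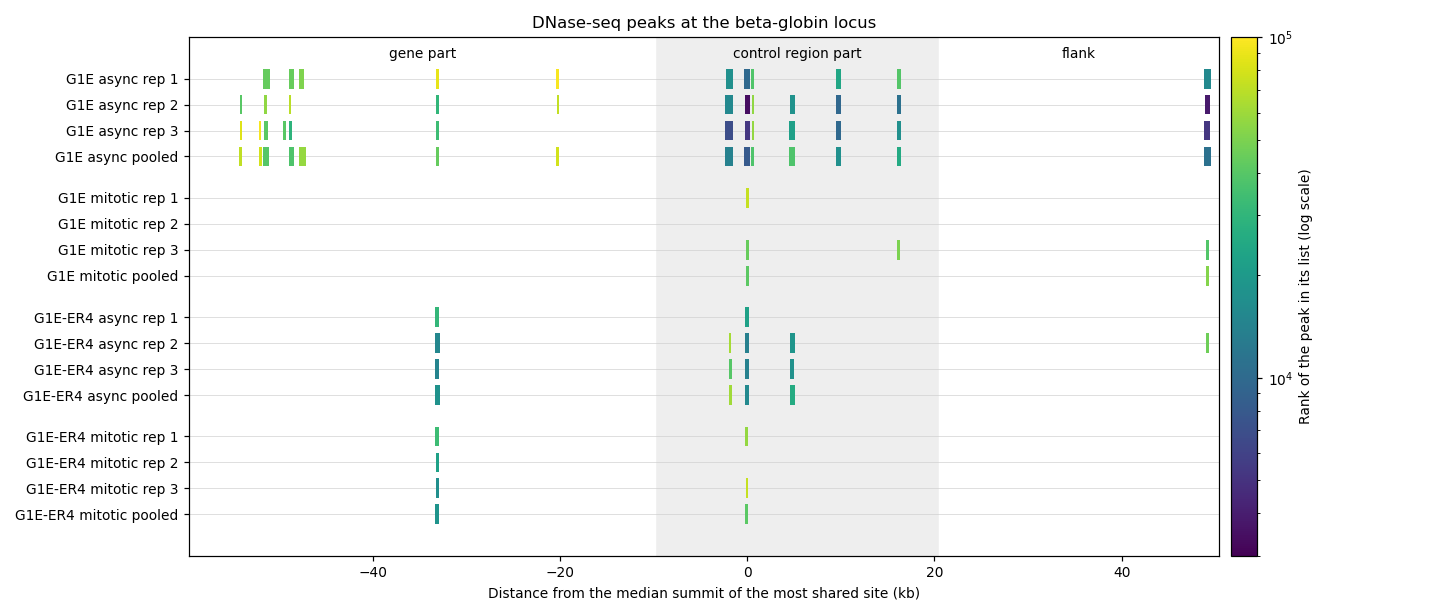
Peaks of each library and of the authors' pooled lists, drawn to scale along the window; the x axis is the distance in kb from the median summit of the site listed by most libraries (10 of 12), rows are lists, colour is the rank of the peak on a log scale and the shaded stretch is the control region part. Asynchronous G1E lists hold 11 to 13 peaks, and the other 9 libraries hold 0 to 5.

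The 111.0096 Mb site was the best placed of the control region and the most widely listed, with a peak in 10 of 12 libraries. It spans 111009309 to 111009921 on chromosome 7 (613 bp). In asynchronous G1E it ranked 9791, 3429 and 5203 in replicates 1 to 3, a mean of 6141 ± 3283 (SD, n = 3). In asynchronous G1E-ER4 it ranked 22366, 13548 and 13772, a mean of 16562 ± 5028 (SD, n = 3). The lines did not overlap, with every G1E-ER4 library placing the site lower. In mitotic G1E it ranked 73312 in replicate 1 and 44347 in replicate 3, and in mitotic G1E-ER4 56773 in replicate 1 and 73189 in replicate 3, while replicate 2 of each did not list it. Every mitotic library thus placed it lower than every asynchronous library of either line. Its signal was 4.71 to 6.43 times the lowest listed signal in asynchronous G1E, 1.99 to 2.90 times in asynchronous G1E-ER4 and 1.07 to 1.23 times in the mitotic libraries that listed it. Its peaks were 558 ± 48.3 bp wide in asynchronous G1E and 447 ± 37.0 bp in asynchronous G1E-ER4 (SD, n = 3 each). Both pooled mitotic lists held it, at rank 41553 in G1E and 40508 in G1E-ER4.

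The 111.0078 Mb site lies 1.82 kb on the gene side of it, from 111007282 to 111008109, and had the widest peaks of the window in asynchronous G1E (790 ± 31.9 bp, SD, n = 3). Its ranks there were 17157, 15393 and 6889. In asynchronous G1E-ER4 it was listed at 62638 and 39811 in replicates 2 and 3 and not in replicate 1, so all 3 G1E-ER4 libraries placed it lower than all 3 G1E libraries. No mitotic library of either line listed it, nor did the pooled mitotic lists. A smaller site at 111.0102 Mb, 0.598 kb on the other side of the 111.0096 Mb site (111010040 to 111010379), ranked 37820, 55634 and 56326 in asynchronous G1E and was listed in no other group.

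The 111.0144 Mb site (111014071 to 111014725) was the site of the control region whose listed ranks were alike in both lines. It ranked 17638 and 21736 in replicates 2 and 3 of asynchronous G1E and 18608 and 17383 in replicates 2 and 3 of asynchronous G1E-ER4. Replicate 1 of both lines did not list it, although the pooled asynchronous lists did, at 37307 and 25465, and no mitotic library did. As it was in fewer than 3 libraries of each group, it was singled out after its values were seen.

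The outer sites, at 111.0194 Mb (111019109 to 111019634) and 111.0258 Mb (111025586 to 111026048), were listed by all 3 asynchronous G1E libraries and by no G1E-ER4 library. The first ranked 23866, 9734 and 9850 in asynchronous G1E, and no library of another group listed it. The second ranked 39050, 11102 and 17097 there and 49774 in replicate 3 of mitotic G1E. No pooled G1E-ER4 list held either of them, and neither did the pooled mitotic G1E list.

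**Figure D2:**
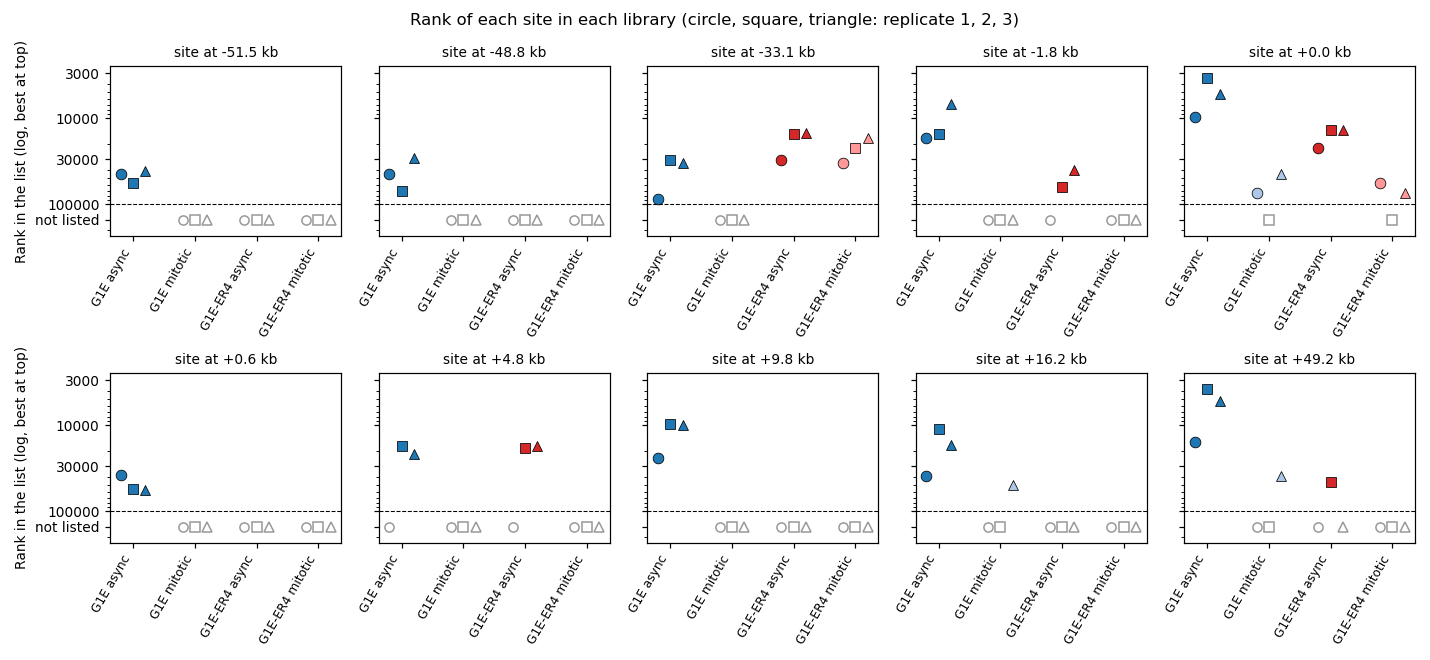
Rank (log axis, strongest at the top) of 10 sites in each of the 12 libraries, one panel per site named by its distance in kb from the 111.0096 Mb site; filled symbols are listed peaks, open symbols below the dashed line are libraries that did not list the site. The panel at -33.1 kb, the 110.9765 Mb site, has all 3 mitotic G1E-ER4 libraries filled and all 3 mitotic G1E libraries open.

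In the gene part, 1 site stood out from the other 7 by group. The 110.9765 Mb site (110976230 to 110976761, 532 bp), 33.1 kb on the gene side of the 111.0096 Mb site, was listed by 9 of 12 libraries. It ranked 87274, 30230 and 33148 in asynchronous G1E and 30540, 15304 and 14657 in asynchronous G1E-ER4. In mitotic G1E-ER4 it ranked 33287, 22254 and 16906, a mean of 24149 ± 8353 against 20167 ± 8989 in asynchronous cells of that line (SD, n = 3 each), so the stages overlapped in rank. They did not overlap in signal, which was 1.63 to 2.72 times the lowest listed signal in asynchronous and 1.33 to 1.62 times in mitotic G1E-ER4. The part of the flatter mitotic lists in this was not tested. No mitotic G1E library listed the site, nor did the pooled mitotic G1E list, whereas the pooled mitotic G1E-ER4 list had it at rank 18307. In asynchronous cells the lines overlapped, as the lowest G1E-ER4 placement (30540) was just below the highest in G1E (30230). Among all regions listed by the same 9 libraries, 0.219% (39 of 17804) were in no mitotic G1E library, and of regions in all 3 mitotic G1E-ER4 libraries 4.22% were in none of mitotic G1E. The regions behind these 2 shares were not matched for rank. Of regions in all 3 asynchronous G1E libraries, 19.4% were in no mitotic G1E library, against 2.33% of those with a mean rank of at most 20000. The 110.9765 Mb site had a mean rank of 50217 in asynchronous G1E, so the shares can make its absence look rarer than it is for regions of like rank. This site was singled out after its values were seen, and these shares describe it without a test. The adult beta-globin genes are near-identical copies, and how the authors' alignment treated reads that fit more than 1 copy is not given in the sources used here, so levels at the genes are uncertain.

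The other 7 sites of the gene part were listed in asynchronous G1E and in no other group. Their ranks were 28888 to 96434, and 5 of the 7 were in 1 or 2 libraries. The 110.9581 Mb site (110957892 to 110958606) ranked 43916, 56023 and 40775 in the 3 libraries, and the 110.9608 Mb site (110960663 to 110961255) 44252, 69295 and 28888. The sites at 110.9576, 110.9602 and 110.9619 Mb each had a peak in 1 library, and those at 110.9555 and 110.9894 Mb in 2. The first 6 of the 7 have summits within 6.38 kb of each other at the far end of the gene part, and the 110.9894 Mb site lies 18.4 kb from the first site of the control region. The last ranked 96434 and 72015 in replicates 1 and 2, close to the end of the lists.

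The flank held a single site at 111.0588 Mb (111058400 to 111059102), 33.0 kb beyond the last site of the control region. In asynchronous G1E it ranked 15616, 3838 and 5191, a mean of 8215 ± 6445 (SD, n = 3), which overlaps the ranks of the 111.0096 Mb site. In the other groups it was listed by replicate 3 of mitotic G1E at 38559 and by replicate 2 of asynchronous G1E-ER4 at 45869, and by no mitotic G1E-ER4 library. Its group order resembled that of the outer control region sites, with G1E-ER4 low or unlisted.

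The first comparison asked how much of the locus stayed accessible in mitosis. Mean peak coverage over the 2 lines fell in both parts of the locus, in the gene part almost wholly through G1E. In the control region part the libraries covered 2565, 3021 and 3157 bp in asynchronous G1E (replicates 1 to 3) and 261, 0 and 593 bp in mitotic G1E. In G1E-ER4 they covered 409, 1233 and 1306 bp in asynchronous and 297, 0 and 225 bp in mitotic cells. The stages did not overlap in either line. Means were 2914 ± 310 and 285 ± 297 bp in G1E and 983 ± 498 and 174 ± 155 bp in G1E-ER4 (SD, n = 3 each). Averaged over lines, coverage fell by 1719 bp (two-sided exact permutation test that swaps stages inside each line, p = 0.005, which is the lowest value 400 arrangements can give; adjusted p = 0.02 by Benjamini-Hochberg over the 8 tests of the window). The number of peaks in the whole window fell by 6.33 on average (exact permutation p = 0.015, adjusted p = 0.03), from 12 ± 1 to 1.33 ± 1.53 in G1E and from 3.67 ± 1.53 to 1.67 ± 0.577 in G1E-ER4 (SD, n = 3 each).

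In the gene part the mitotic libraries of G1E listed no peak, and those of G1E-ER4 listed 1 site. Asynchronous G1E libraries covered 2431, 1364 and 1791 bp, and the 3 mitotic G1E libraries 0 bp. Asynchronous G1E-ER4 libraries covered 408, 498 and 495 bp and mitotic ones 446, 303 and 343 bp, all of it at the 110.9765 Mb site. The mean difference of mitotic from asynchronous cells was -1862 bp in G1E and -103 bp in G1E-ER4, where the stages overlapped. The average over lines fell by 982.5 bp (exact permutation p = 0.01, adjusted p = 0.0267). The change in G1E minus that in G1E-ER4 was -1759 bp (two-sided exact permutation of the lines inside each stage, p = 0.005, adjusted p = 0.02). This permutation starts from no line difference in either stage, so it does not by itself test for equal mitotic changes, and most of the value is the gap between the lines in asynchronous cells (-1395 bp, against 364 bp in mitotic cells). For the rank of the 110.9765 Mb site by itself, a test added after the data were seen, the same permutation gave an exact p = 0.47. In the control region part the difference in coverage was -1821 bp and did not pass (exact permutation p = 0.075, adjusted p = 0.0857). The average fall in the gene part did not pass in percent of the bases covered by each list (adjusted p = 0.072, exact permutation) or with 300 bp around each summit (adjusted p = 0.114, exact permutation).

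**Figure D3:**
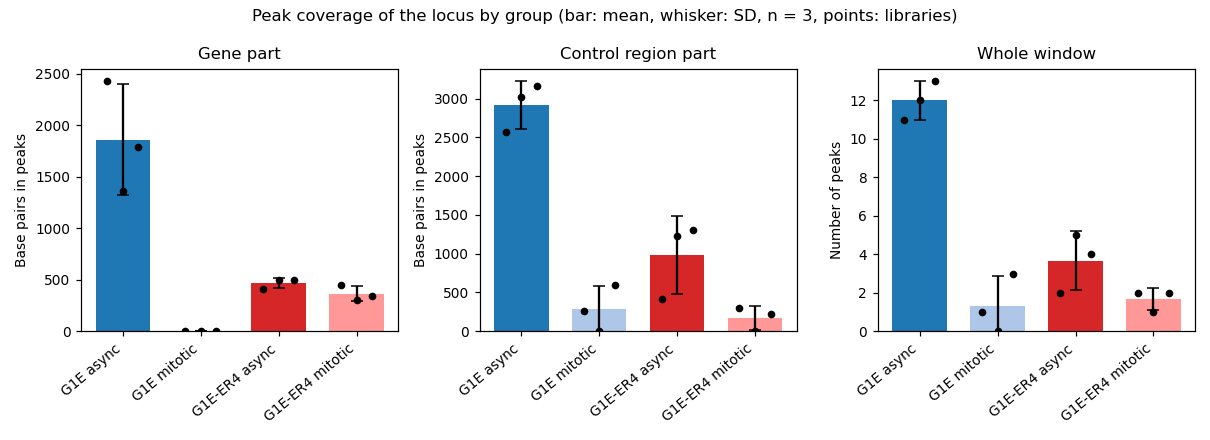
Base pairs covered by peaks in the gene part and in the control region part, and number of peaks in the whole window, by group; bars start at 0 and give the mean, whiskers the SD (n = 3) and points the libraries. Mitotic G1E covers 0 bp of the gene part in all 3 libraries, and mitotic G1E-ER4 303 to 446 bp.

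The mitotic support of the sites was set beside that of the genome's regions. Of the 9 sites in all 3 asynchronous G1E libraries, 6 were in no mitotic G1E library, against 19.4% of the 40695 regions with such support. None of the 9 was in all 3 mitotic libraries, against 51.1% of those regions. With a mean rank of at most 20000 in asynchronous G1E, a limit chosen after the data were seen, 4 sites remained (111.0078, 111.0096, 111.0194 and 111.0588 Mb). Of these 4, 2 were in no mitotic G1E library and 0 in all 3, against 2.33% and 78.1% of 17303 regions. These are counts of a few neighbouring sites and were not tested against the genome. In G1E-ER4, 2 sites were in all 3 asynchronous libraries, the 110.9765 and the 111.0096 Mb sites, and the first of them was in all 3 mitotic libraries, against 61.3% of regions.

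**Figure D4:**
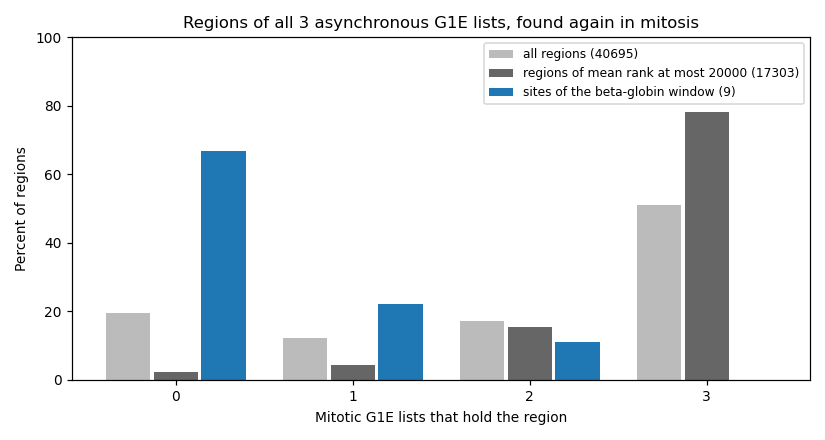
Percent (y axis) of regions present in all 3 asynchronous G1E libraries that 0, 1, 2 or 3 mitotic G1E libraries (x axis) listed, for all 40695 regions, for the 17303 of mean rank at most 20000 and for the 9 sites of the locus. Of the 9 sites, 6 are at 0, 2 at 1 and 1 at 2.

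The second comparison set GATA1-restored G1E-ER4 against GATA1-null G1E. It shares its asynchronous G1E libraries with the first, so the 2 comparisons are not independent. In asynchronous cells every G1E-ER4 library covered less of either part than every G1E library, with mean differences of -1395 bp in the gene part and -1932 bp in the control region part. For 3 libraries against 3 an exact test cannot go below p = 0.1, and none was made within a stage. Over both stages the difference of G1E-ER4 from G1E in the control region part was -1021 bp (exact permutation p = 0.035, lines swapped inside each stage), with an adjusted p = 0.056 that did not pass. Without replicate 2 of mitotic G1E it was -1092 bp and without replicate 1 of mitotic G1E-ER4 -1052 bp, and then passed (exact permutation, adjusted p = 0.024 and 0.04). Leaving out any other single library did not make it pass (exact permutation, adjusted p up to 0.0933). In the gene part the average difference was -515.5 bp (exact permutation p = 0.115, adjusted p = 0.115), and in mitotic cells alone it was 364 bp, with G1E-ER4 higher in all 3 libraries. The difference in number of peaks was -4 (exact permutation p = 0.075, adjusted p = 0.0857).

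By site, 5 of the 9 sites in all 3 asynchronous G1E libraries were in no asynchronous G1E-ER4 library, against 14% of regions. Of the 4 of mean rank at most 20000 this held for 1, against 2.87% of regions. The 5 were the sites at 110.9581, 110.9608, 111.0102, 111.0194 and 111.0258 Mb. The 110.9765 Mb site went the other way, and the 111.0144 Mb site had like ranks in both lines. No site was listed in G1E-ER4 and in no asynchronous G1E library.

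Ranks were also tested site by site, in 1 test run on all 265371 regions, with unlisted libraries set to the rank after the last. No region of the genome passed after adjustment in either comparison (0% called, exact permutation test with Benjamini-Hochberg adjustment), 22432 and 13549 were under an unadjusted 0.05 by stage and by line, and the smallest adjusted p was 0.169 by stage and 0.310 by line. The exact p could not go below 0.005, so a call needed a large share of all regions at that value. At an unadjusted exact p under 0.05, 2 of the 15 sites were placed lower in mitosis, against 4.8% of all regions. They were the 111.0096 Mb site (log10 rank higher by 0.878, exact permutation p = 0.005, adjusted p = 0.169) and the 111.0078 Mb site (0.557, exact permutation p = 0.02, adjusted p = 0.308). Every asynchronous library placed the 111.0096 Mb site higher than every mitotic library, and 1.88% of all regions, or 18.5% of those in all 6 asynchronous libraries, had such an order within each line. By line, 1 site passed that unadjusted limit. The 110.9765 Mb site was placed higher in G1E-ER4, with a difference in log10 rank of -0.501 (exact permutation p = 0.01, adjusted p = 0.459), against 3% of all regions in that direction. No site was placed lower in G1E-ER4 under that limit, against 2.1% of regions. The 111.0258 and 111.0588 Mb sites were placed lower there and lay on the limit itself (exact permutation p = 0.05 each). Their differences in log10 rank were 0.406 and 0.597 (adjusted p = 0.773 each, exact permutation). Where no mitotic library listed a site, its mitotic ranks were tied and only the asynchronous libraries could differ by line. Its exact permutation p could then not go below 0.1, the value at the 110.9581, 110.9608, 111.0078, 111.0102 and 111.0194 Mb sites. The missing call therefore does not show like ranks in both lines. By stage the same bound held for a site that no G1E-ER4 library listed.

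The regions outside the window with the profile most like that of the 111.0096 Mb site over the 12 libraries were sought among the 16323 regions of all 12 lists, by Pearson's correlation of log10 rank. The first lies on chromosome 6 from 134961114 to 134962811 (r = 0.939) and ranked 1186 to 3048 in asynchronous G1E, 3490 to 4613 in asynchronous G1E-ER4, 7217 to 12559 in mitotic G1E and 6352 to 8545 in mitotic G1E-ER4. The next lies on chromosome 4 from 43042134 to 43048042 (r = 0.934), and the third (r = 0.929) on chromosome 18. The 12 points of each correlation share their libraries with the globin site.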

How the data were processed

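The data are 16 headerless lists of DNase-seq peaks, 12 from single libraries and 4 that the authors pooled by group. The submitters' processing notes name Bowtie and build mm9, whereas for the peak caller, its filters and its normalization the sources used here give nothing. Each list holds 100000 peaks, and the signal per peak is the value the authors deposited. It was used to rank peaks within a list. Ranks were compared between lists because all lists have the same length. No 2 of the 12 libraries had the same peaks.

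Sites are the union of the 12 libraries' peaks on the 19 autosomes and X, merged where they share at least 1 bp. Sites in all 3 libraries of a group were described in full. Tests were exact permutation tests over libraries, two-sided, with 400 arrangements and a threshold of 0.05, and were tested on simulated data. The 8 window tests were adjusted together and the rank tests over all regions. The window, its members and the lists of genes and motifs were chosen with earlier results of these data known, CACCC was added after the sequences were seen, and the limit of rank 20000 and the rank test of the mitotic change between lines were added after the data were seen. Gene lists and cell type markers were not analysed here, since gene positions on mm9 were not used. Calculations used Python 3.11.15, numpy 2.4.6, pandas 2.3.3 and matplotlib 3.10.9.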

Additional observations from a re-analysis of the deposited data

Results flagged for a closer look

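The mitotic change of peak coverage in the gene part was taken for each line. It was -1862 bp in G1E and -103 bp in G1E-ER4, a difference of -1759 bp (two-sided exact permutation of the lines inside each stage, p = 0.005, adjusted p = 0.02). The permutation starts from no line difference in either stage and does not by itself test for equal changes. The lines differed by -1395 bp in asynchronous and 364 bp in mitotic cells, and for the rank of the 110.9765 Mb site alone the same permutation gave an exact p = 0.47. All 3 mitotic G1E libraries covered 0 bp there, and the 3 mitotic G1E-ER4 libraries 303 to 446 bp, at the 110.9765 Mb site. Leaving out any 1 library gave -2008 to -1474.5 bp.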

How the results depend on the processing

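Read depth is unknown and each list ends at rank 100000, which limits every statement on an unlisted site. Of the alternative values of the 10 planned results, 158 kept their direction and side of the threshold or, without a test, stayed within the spread between libraries. Another 6 lost a call, 2 gained one and 4, without a test, moved by more than that spread. The 158 include the overlap setting and the rank results, which called no site in any setting. With 300 bp around each summit the mitotic change of the gene part was -800 bp (exact permutation, adjusted p = 0.114), and in percent of the list's covered bases it was -0.00142 (adjusted p = 0.072, exact permutation). Exchange of labels within replicate number, a replicate block with 64 arrangements and a smallest p of 0.03125, left the values as they were and ended 4 calls at an adjusted exact p = 0.125: -982.5 and -1719 bp by stage in the gene and control region parts, -6.33 peaks by stage, and -1759 bp for the difference between lines in the gene part. The -1719 and -1759 bp results were at that smallest p. An adjusted p under 0.05 needed most of the 8 window tests to be there, so the block could hardly call any. Deviations of same-numbered libraries from their group means correlated at -0.0276 to 0.254 across regions, above 0.1 in 7 of 12 pairs, and in 8 of 12 pairs the library correlated best with its own number. The authors' pooled lists, without a test, gave -1700.5 and -2067 bp by stage in the gene and control region parts, -1181.5 bp by line and -3241 bp for the difference between lines in the gene part. The control region by line ranged from -1108.5 to -877.75 bp on leaving out a library (adjusted exact p = 0.024 to 0.0933). At the 111.0144 Mb site the line difference in log10 rank, -0.0123, turned to 0.106 without asynchronous G1E replicate 1 and to 0.0461 and 0.0535 without asynchronous G1E-ER4 replicates 2 and 3; leaving out 1 library gave -0.136 to 0.106. The overlap setting could change nothing, as each peak lies wholly inside its merged region. No rank test called a site under any alternative. After adjustment over all regions, a call needed a large share of them at the smallest p the permutations can give. The lack of calls therefore says little on stability.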

Other observations

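The 111.0144 Mb site was missing from replicate 1 of both asynchronous groups and ranked 17383 to 21736 in the 4 other asynchronous libraries. Replicate 1 had the largest covered length of each group, at 113 and 130 Mb in asynchronous and mitotic G1E and 181 and 146 Mb in asynchronous and mitotic G1E-ER4. In asynchronous G1E-ER4, replicate 1 listed 2 peaks of the window against 5 and 4 in the others, and in asynchronous G1E 11 against 12 and 13. Replicate 1 also gave the lowest placement of the 111.0096 Mb site in both asynchronous groups. Of the 15 sites, the 110.9602 Mb site, of 1 library, had no peak in the pooled asynchronous G1E list.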
